A study of Homo sapiens with 4 samples.

Results

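The 32 nucleotide synthesis enzymes described here carry out purine, pyrimidine and deoxynucleotide synthesis and salvage. They were chosen by gene symbol for their known role, with earlier results of these data known, from the 60671 Ensembl genes of the RNA-seq data. RNA was sequenced from 22RV1 and PC3, a pair of established human prostate carcinoma lines grown in RPMI medium with serum. Each line had been infected with pLKO.1 lentivirus carrying a non-targeting shRNA (shCON) or an shRNA against the RNA helicase gene DDX52 (shDDX52), and stable transformants were selected with puromycin. There were 4 conditions with 1 library each, so the knockdown rests on 1 hairpin and on 1 selected population in each line. Levels were deposited as TPM, a length-corrected measure of transcript abundance relative to the whole library, from which the sequencing depth cannot be recovered. No difference below therefore has a replicate check, a p-value or an interval.

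Cells make purines by building the ring stepwise on phosphoribosyl pyrophosphate (PRPP) until inosine monophosphate (IMP) is formed, which is then converted to AMP or GMP. Pyrimidines are made as a free ring that is joined to PRPP and decarboxylated to UMP. Salvage enzymes return free bases and nucleosides to the pool, ribonucleotide reductase converts ribonucleotides to deoxyribonucleotides, and thymidylate synthase makes dTMP for DNA replication. Many of these genes are textbook targets of the transcription factor c-Myc, whose signalling the study addressed.

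The shRNA target was lower in both knockdown libraries. DDX52 was 4.88 TPM with shCON against 1.2 TPM with shDDX52 in 22RV1, and 9.20 and 2.07 TPM in PC3. MYC was 169 and 147 TPM in the shCON and shDDX52 libraries of 22RV1, and 192 and 122 TPM in those of PC3. The level with shDDX52 was 87.0% of the control in 22RV1 and 63.6% in PC3. The PC3 difference was past the 1.5-fold call used below, beside 9.84% of all genes lower by that much. For the protein, the paper reported no significant decrease of c-Myc on western blots after DDX52 knockdown. Of 7 prostate luminal markers, all reached 1 TPM in both 22RV1 libraries and 3 did so in both PC3 libraries. The luminal kallikrein KLK2 was 32.6 and 23.1 TPM in 22RV1, and PC3 listed it at 0 with either shRNA. All 3 epithelial markers (EPCAM, KRT8, KRT18) were present in every library, whereas of 9 markers of fibroblasts, leukocytes and endothelium between 1 and 3 reached 1 TPM, with summed levels of 9.56 to 21.4 TPM. The share of TPM on mitochondrially encoded genes was higher with shDDX52 in both lines, 13.0% against 9.81% with shCON in 22RV1 and 10.3% against 8.10% in PC3. Ribosomal RNA took 1.21% and 0.0872% in 22RV1 and 0.0923% and 3.13% in PC3, and the part of these shares in the differences below was not tested. In bulk RNA, fewer cells of one kind and less RNA per cell cannot be told apart.

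All 32 enzymes were expressed in every library. NME2, a nucleoside diphosphate kinase, had the highest level in each of the 4 libraries. It alone made up 32.5% of the summed enzyme TPM in both 22RV1 libraries, and 39.4% and 36.9% in PC3 with shCON and shDDX52. Summed over the 32 enzymes, 22RV1 had 6754 TPM with shCON against 6708 TPM with shDDX52, and PC3 had 8180 and 7909 TPM. These sums were 0.684%, 0.677%, 0.826% and 0.803% of all TPM in the same order. Without NME2 the sums were 4561, 4528, 4958 and 4991 TPM, so in PC3 the lower sum with shDDX52 was not seen once NME2 was left out. The enzymes were abundant transcripts: their median was 88.4 and 79.7 TPM in 22RV1 and 63.9 and 62.1 TPM in PC3, against 9.73 to 10.9 TPM for all genes of at least 1 TPM. Between 4 and 5 of them were under 10 TPM in a library, and RRM2B was the lowest in every library except 22RV1 shDDX52, where CTPS2 was lowest.

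**Figure D1:**
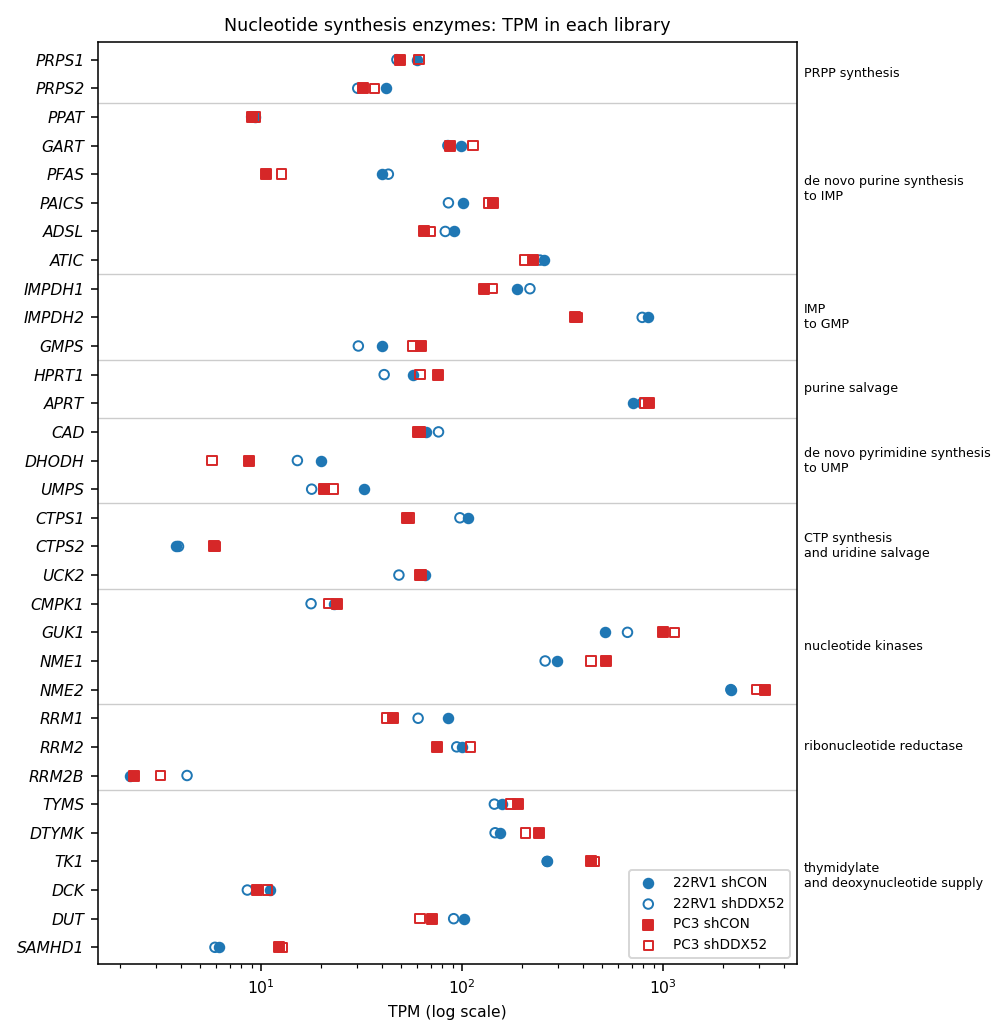
Level of each of the 32 enzymes (rows, grouped by step) in TPM on a log axis, with circles for 22RV1, squares for PC3, filled symbols for shCON and open symbols for shDDX52, 1 library per symbol. Levels span RRM2B at 2.23 TPM to NME2 at 3222 TPM, and NME2 lies furthest right in every library.

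Changes were expressed as log2 ratios, the base-2 logarithm of the level with shDDX52 over the level with shCON after 1 TPM was added to both, so the change of a gene at a low level is understated. A gene was called lower or higher when the 2 libraries differed by at least 1.5-fold on this scale, a threshold of size and not a test. All 32 enzymes passed the filter of 1 TPM in either library in each comparison, so no member was lost to it. Counts of enzymes are set beside the share of all genes with the same call.

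In 22RV1, 24 of the 32 enzymes (75%) were lower with shDDX52 by any amount and 8 were higher, while 58.8% of the 14438 genes that passed the filter were lower. The differences were mostly small. At 1.5-fold only UMPS was lower, beside 8.47% of all genes, and only RRM2B was higher, beside 5.61% of all genes. The median log2 ratio of the enzymes was −0.13 and that of all genes was −0.076. The enzymes just inside the threshold were RRM1 at −0.49, HPRT1 at −0.47 and PRPS2 at −0.45.

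In PC3, 13 of the 32 enzymes were lower with shDDX52 and 19 were higher, while 53.5% of 14262 genes were lower. None of the enzymes reached 1.5-fold in either direction, where 9.84% of all genes were lower and 8.95% were higher by that much. The nearest were RRM2 at 0.54 and DHODH at −0.53, and each passed under 1 of the alternatives tried: DHODH at −0.60 with a pseudocount of 0.1 TPM, and RRM2 at 0.67 when TPM were recomputed over nuclear protein-coding genes. The median of the enzymes was 0.033 and that of all genes −0.036. The recomputed scale moved the median of all genes in PC3 to 0.087, and 9 enzymes rather than 13 were then lower.

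The lines shared the direction of change for 19 of the 32 enzymes, beside 50.9% of the 12175 genes that passed in both lines. There were 12 lower in both lines (5 of them, PAICS, RRM1, TYMS, ATIC and NME2, with a sign that turned in 1 line under another scaling or pseudocount), which is 37.5% of the enzymes beside 32.5% of those genes, and 7 were higher in both, beside 18.5%. The 12 were PAICS, ATIC, GMPS, HPRT1, DHODH, CMPK1, NME1, NME2, RRM1, TYMS, DTYMK and DUT, and the 7 were PFAS, IMPDH1, CAD, CTPS2, GUK1, TK1 and RRM2B. Another 12 were lower in 22RV1 and higher in PC3, beside 27.4% of all genes, of which PPAT and SAMHD1 turned sign in 22RV1 under another scaling or pseudocount. The reverse was seen for 1, APRT, which turned sign in PC3, beside 21.4% of all genes. Opposite directions with a gap of at least 1.5-fold were seen for 5 of the 32 enzymes, UMPS, PRPS1, PRPS2, RRM2 and GART, a share below the 19.5% of all genes. Spearman's rho between the log2 ratios of both lines was 0.271 across the 32 enzymes and 0.0121 across the 12175 genes, as a description across genes that share libraries.

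**Figure D2:**
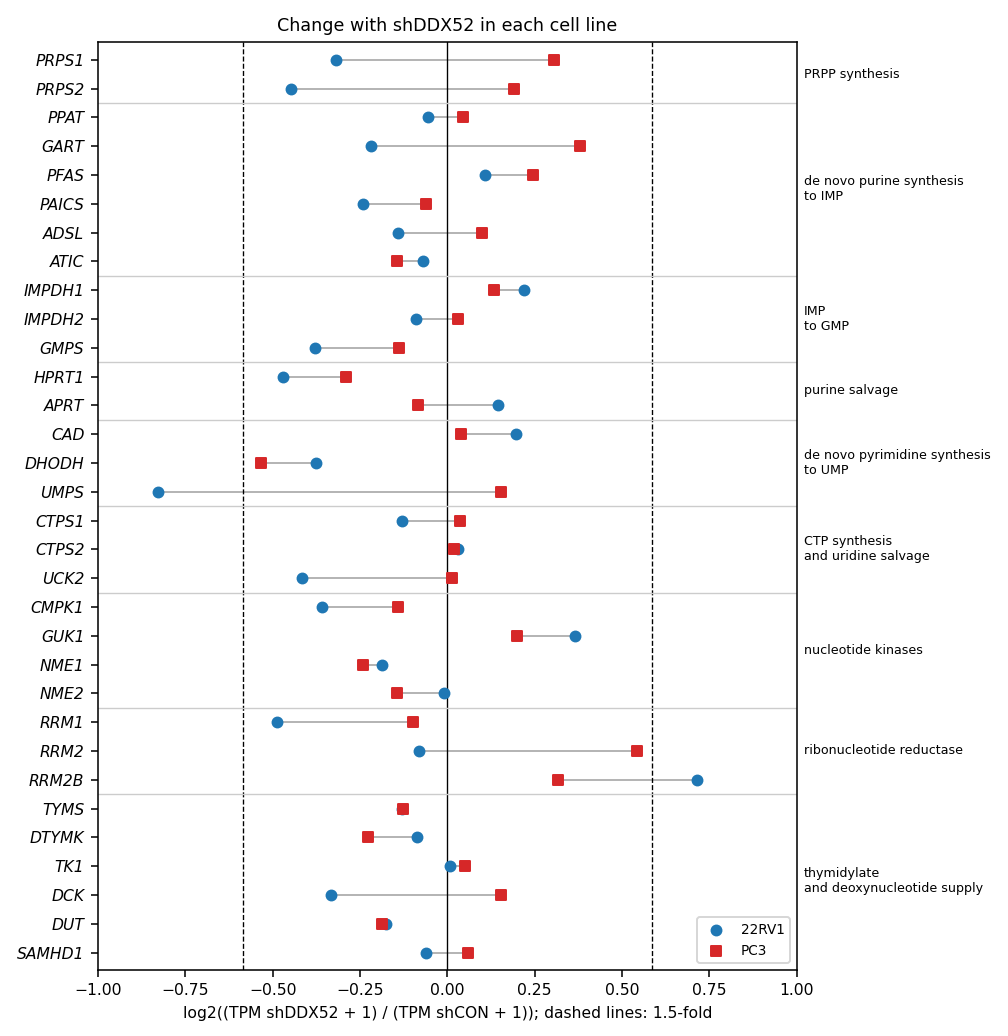
Log2 ratio of shDDX52 over shCON for each enzyme (rows, grouped by step) in 22RV1 (circles) and PC3 (squares), with a grey line joining the values of 1 gene and dashed lines at 1.5-fold. UMPS at −0.83 and RRM2B at 0.71, both in 22RV1, are the symbols outside the dashed lines, and UMPS has the longest joining line.

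PRPP is the sugar phosphate donor that purine, pyrimidine and salvage routes all draw on, and PRPS1 and PRPS2 encode its synthetases. PRPS1 was 59.6 TPM with shCON against 47.6 TPM with shDDX52 in 22RV1, and 49.4 and 61.3 TPM in PC3, giving log2 ratios of −0.32 and 0.30. PRPS2 was 41.8 and 30.4 TPM in 22RV1 and 32.1 and 36.9 TPM in PC3, giving −0.45 and 0.19. Both synthetase genes were thus lower with shDDX52 in 22RV1 and higher in PC3, and in neither line by 1.5-fold. PRPS1 made up 58.8% to 62.5% of the summed TPM of the pair in the 4 libraries.

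De novo purine synthesis is represented by 6 genes whose products build IMP from PRPP. PPAT, the amidotransferase of the committed step, was the least abundant of them: 9.41 and 9.01 TPM in 22RV1 with shCON and shDDX52, and 9.08 and 9.39 TPM in PC3. Its levels in the 4 libraries lay closer together than those of any other enzyme of this route. PAICS, which encodes a bifunctional carboxylase and synthetase, was 102 and 85.9 TPM in 22RV1 and 142 and 136 TPM in PC3. Its log2 ratios with shDDX52 were −0.24 and −0.06, the second of which changed sign under another scaling.

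PPAT and PAICS are divergent neighbours on chromosome 4. PPAT runs on the minus strand from 56393362 to 56435615 and PAICS on the plus strand from 56435741 to 56464579 (GENCODE 29, GRCh38), and the stretch between their starts lies in no annotated exon. It is shown because 1 short interval separates the starts of the least abundant gene of this route and of a gene over 9 times as abundant. The 125 bases at chr4:56435616-56435740, plus strand, taken from RefSeq's promoter windows on GRCh38, have a GC content of 76%, and capitals mark the 3 copies of the GC box, GGGCGG.
PPAT-PAICS: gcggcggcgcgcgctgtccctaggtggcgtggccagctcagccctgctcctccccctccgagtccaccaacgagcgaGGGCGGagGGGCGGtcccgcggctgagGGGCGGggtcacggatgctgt
The ratio of PAICS to PPAT was 10.8 with shCON and 9.53 with shDDX52 in 22RV1, and 15.7 and 14.5 in PC3. It was higher in both PC3 libraries than in both 22RV1 libraries, and in each line a little lower with shDDX52. A CACGTG E-box, the sequence that c-Myc is known to recognise, lies outside the printed stretch at positions 56435792 to 56435797. That is 40 bases after the RefSeq start of PAICS and 177 bases before that of PPAT.

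GART, FGAM synthase (PFAS), adenylosuccinate lyase (ADSL) and the final bifunctional enzyme ATIC complete this route. GART was 99.5 and 85.3 TPM in 22RV1 and 87.0 and 114 TPM in PC3, and its log2 ratios of −0.22 and 0.38 had opposite signs. GART shares exonic sequence with SON on the opposite strand, which was at 54.5 to 67.4 TPM, and reads of the overlap cannot be told apart without strand. PFAS was 40.0 and 43.1 TPM in 22RV1 but 10.6 and 12.7 TPM in PC3, so it differed far more between the lines than with shDDX52. ADSL was 91.4 and 82.8 TPM in 22RV1 and 65.1 and 69.8 TPM in PC3, with log2 ratios of −0.14 and 0.10. It shares exons with AL022238.4 on the same strand, at 7.15 to 20.6 TPM, so part of its reads are uncertain. ATIC, the most abundant of the 6 genes in every library, was 257 and 245 TPM in 22RV1 and 227 and 205 TPM in PC3. The median log2 ratio of the 6 genes was −0.10 in 22RV1 and 0.072 in PC3, and none was called.

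IMP dehydrogenase is the rate-limiting enzyme of guanine nucleotide synthesis, and GMP synthetase (GMPS) completes the conversion. IMPDH2, the form known to predominate in proliferating cells, was 841 and 790 TPM in 22RV1 and 366 and 374 TPM in PC3. IMPDH1 was 187 and 218 TPM in 22RV1 and 129 and 142 TPM in PC3. IMPDH2 was the larger in every library, with shares of the pair of 81.8% and 78.3% in 22RV1 and 73.9% and 72.5% in PC3, lower with shDDX52 in both lines by small amounts. GMPS was 40.0 and 30.6 TPM in 22RV1 and 62.7 and 56.9 TPM in PC3, giving log2 ratios of −0.38 and −0.14. Purine salvage also had small differences: HPRT1, which recovers hypoxanthine and guanine, was 57.3 and 41.1 TPM in 22RV1 and 76.2 and 62.1 TPM in PC3, lower with shDDX52 in both. APRT, which recovers adenine, was among the most abundant enzymes at 714 and 790 TPM in 22RV1 and 859 and 810 TPM in PC3.

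The pyrimidine route held the lowest log2 ratio of each line. UMPS encodes the bifunctional enzyme that forms UMP from orotate and lies on chromosome 3 from 124730366 to 124749273, plus strand. UMPS was 32.6 TPM with shCON against 17.9 TPM with shDDX52 in 22RV1, and 20.6 and 23.1 TPM in PC3. The 22RV1 control stood above the other 3 libraries, which lay between 17.9 and 23.1 TPM. In 22RV1 the level with shDDX52 was 54.9% of the control, a log2 ratio of −0.83 that ranged from −0.86 to −0.75 across the scalings and pseudocounts tried. In PC3 the log2 ratio was 0.15, and the difference of 0.98 between the lines was the largest of any enzyme, although it could not be tested.

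DHODH encodes the mitochondrial dehydrogenase that makes orotate, the substrate of UMPS, and lies on chromosome 16 from 72008588 to 72027664, plus strand. DHODH was 20.1 TPM with shCON against 15.2 TPM with shDDX52 in 22RV1, and 8.71 and 5.71 TPM in PC3. Both 22RV1 libraries were above both PC3 libraries, and the log2 ratios of −0.38 and −0.53 had the same sign. CAD, the trifunctional enzyme of the first steps, was 66.7 and 76.6 TPM in 22RV1 and 60.4 and 62.1 TPM in PC3. CAD was thus slightly higher with shDDX52 in both lines, with log2 ratios of 0.20 and 0.04, so the 3 genes of this route did not move together.

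CTP synthetase makes CTP from UTP, and CTPS1 was its abundant form in all 4 libraries. CTPS1 was 107 and 97.9 TPM in 22RV1 and 53.2 and 54.5 TPM in PC3, while CTPS2 was 3.8 and 3.90 TPM in 22RV1 and 5.85 and 5.94 TPM in PC3. The share of CTPS1 was 96.6% and 96.2% in 22RV1 and 90.1% and 90.2% in PC3, which separates the lines but not the shRNAs. UCK2, a kinase of uridine and cytidine salvage, was 65.3 and 48.7 TPM in 22RV1 and 62.0 and 62.6 TPM in PC3. UCK2 shares exonic sequence with TMCO1 on the opposite strand, whose level was 114 and 71.6 TPM in 22RV1 and 134 and 126 TPM in PC3. Both genes were lower with shDDX52 in 22RV1, and whether reads of the overlap contribute was not tested.

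The kinases that carry nucleoside monophosphates to triphosphates included the most abundant enzymes. GUK1, which phosphorylates GMP, was 518 and 668 TPM in 22RV1 and 998 and 1145 TPM in PC3, higher with shDDX52 in both lines with log2 ratios of 0.36 and 0.20. CMPK1, which acts on CMP and UMP, was 23.1 and 17.8 TPM in 22RV1 and 24.1 and 21.8 TPM in PC3. NME1 and NME2, the nucleoside diphosphate kinases, lie next to each other on chromosome 17. NME1 was 296 and 260 TPM in 22RV1 and 520 and 440 TPM in PC3, with log2 ratios of −0.19 and −0.24. NME2 was 2194 and 2181 TPM in 22RV1 and 3222 and 2918 TPM in PC3. NME2 held 86.1% to 89.3% of the pair in the 4 libraries, and the separate NME1-NME2 read-through gene, whose exons both share, was listed at 5.43 to 22.9 TPM.

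Ribonucleotide reductase consists of a large subunit, RRM1, and a small subunit that is either RRM2, which is used in S phase, or RRM2B, which is a p53 target gene used outside it. RRM1 was 85.5 and 60.7 TPM in 22RV1 and 45.6 and 42.6 TPM in PC3, with log2 ratios of −0.49 and −0.10. RRM2 was 99.9 and 94.4 TPM in 22RV1 and 75.5 and 110 TPM in PC3, and its 0.54 was the highest log2 ratio of any enzyme in PC3. The ratio of RRM1 to RRM2 was therefore lower with shDDX52 in both lines, at 0.856 and 0.643 in 22RV1 and 0.604 and 0.385 in PC3. In 22RV1 that came from a lower RRM1 and in PC3 from a higher RRM2.

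RRM2B was the lowest of these 3 genes by far. It was 2.23 TPM with shCON against 4.30 TPM with shDDX52 in 22RV1, and 2.35 and 3.17 TPM in PC3. The controls of both lines were close to each other and both knockdown libraries lay above them. The level in 22RV1 was 1.93-fold higher, a log2 ratio of 0.71, and in PC3 the log2 ratio was 0.32. RRM2B made up 2.18% of the small-subunit TPM with shCON against 4.36% with shDDX52 in 22RV1, but 3.02% and 2.79% in PC3, where RRM2 was higher as well.

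**Figure D3:**
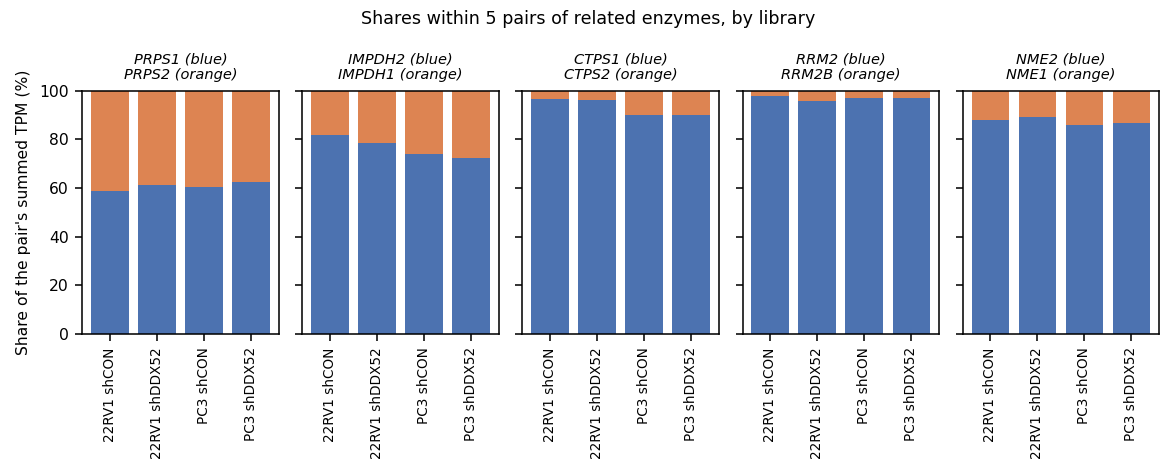
Share of each member in the summed TPM of 5 pairs of related enzymes (percent, stacked bars from 0 to 100), 1 bar per library and 1 panel per pair. The same gene of a pair was the larger in all 4 libraries, and the IMPDH2 share ran from 81.8% in 22RV1 shCON to 72.5% in PC3 shDDX52.

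Thymidylate and deoxynucleotide supply comprised 6 genes, none of which was called with shDDX52 in either line. TYMS, thymidylate synthase, was 159 and 145 TPM in 22RV1 and 191 and 175 TPM in PC3, with a log2 ratio of −0.13 in each. Its exons overlap ENOSF1 on the opposite strand, at 27.5 to 62.3 TPM, and TYMSOS, at 20.9 to 23.6 TPM. DTYMK, the dTMP kinase, was 156 and 147 TPM in 22RV1 and 243 and 208 TPM in PC3. DUT, which hydrolyses dUTP and so keeps uracil out of DNA, was 103 and 91.2 TPM in 22RV1 and 70.9 and 62.2 TPM in PC3. TYMS, DTYMK and DUT were lower with shDDX52 in both lines, with log2 ratios of −0.23 to −0.09, and that of TYMS turned sign in PC3 under another scaling.

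The salvage kinases and the dNTP hydrolase make up the rest of this group. TK1, the cytosolic thymidine kinase of S phase, was 264 and 266 TPM in 22RV1 and 439 and 455 TPM in PC3. DCK, the deoxycytidine kinase that also activates several nucleoside drugs, was 11.1 and 8.58 TPM in 22RV1 and 9.63 and 10.8 TPM in PC3, and its log2 ratio of −0.33 was the lowest of the 6 genes in 22RV1. The ratio of TK1 to DCK was 23.9 and 31.0 in 22RV1 and 45.6 and 42.0 in PC3. SAMHD1, which degrades dNTPs, was 6.22 and 5.92 TPM in 22RV1 and 12.3 and 12.9 TPM in PC3, higher in PC3 with either shRNA. Its exons overlap TLDC2 on the opposite strand, at 3.85 and 3.37 TPM in 22RV1 and 0.12 and 0.24 TPM in PC3. DCK shares exons with MOB1B on the same strand, at 1.49 to 2.49 TPM, and whether reads of these overlaps contribute was not tested.

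More enzymes were called between the control lines than with either knockdown. PC3 shCON was compared with 22RV1 shCON, the same control libraries as in the knockdown comparisons. Of the 32 enzymes 18 were lower and 14 higher in PC3, where 52.3% of 15727 genes were lower. At 1.5-fold 6 (18.8%) were lower and 6 (18.8%) were higher, beside 32.2% and 29.3% of all genes. The median log2 ratio of PC3 over 22RV1 was −0.11 for the enzymes and −0.067 for all genes.

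The 6 enzymes lower in PC3 were PFAS (log2 ratio −1.82), IMPDH2 (−1.20), DHODH (−1.12), CTPS1 (−1.0), RRM1 (−0.89) and UMPS (−0.64). PFAS had the largest difference, 3.78-fold in TPM. The 6 enzymes higher in PC3 were GUK1 (0.94), SAMHD1 (0.88), NME1 (0.81), TK1 (0.73), DTYMK (0.64) and GMPS (0.63). All 4 nucleotide kinases were above 22RV1, with a median of 0.68, and all 3 genes of the route to UMP were below it, with a median of −0.64. The enzymes just inside the threshold were NME2 at 0.55, DUT and IMPDH1 at −0.53 and CTPS2 at 0.51. UMPS, GMPS and DTYMK fell within 1.5-fold, and these 4 passed it, under at least 1 other scaling or pseudocount.

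**Figure D4:**
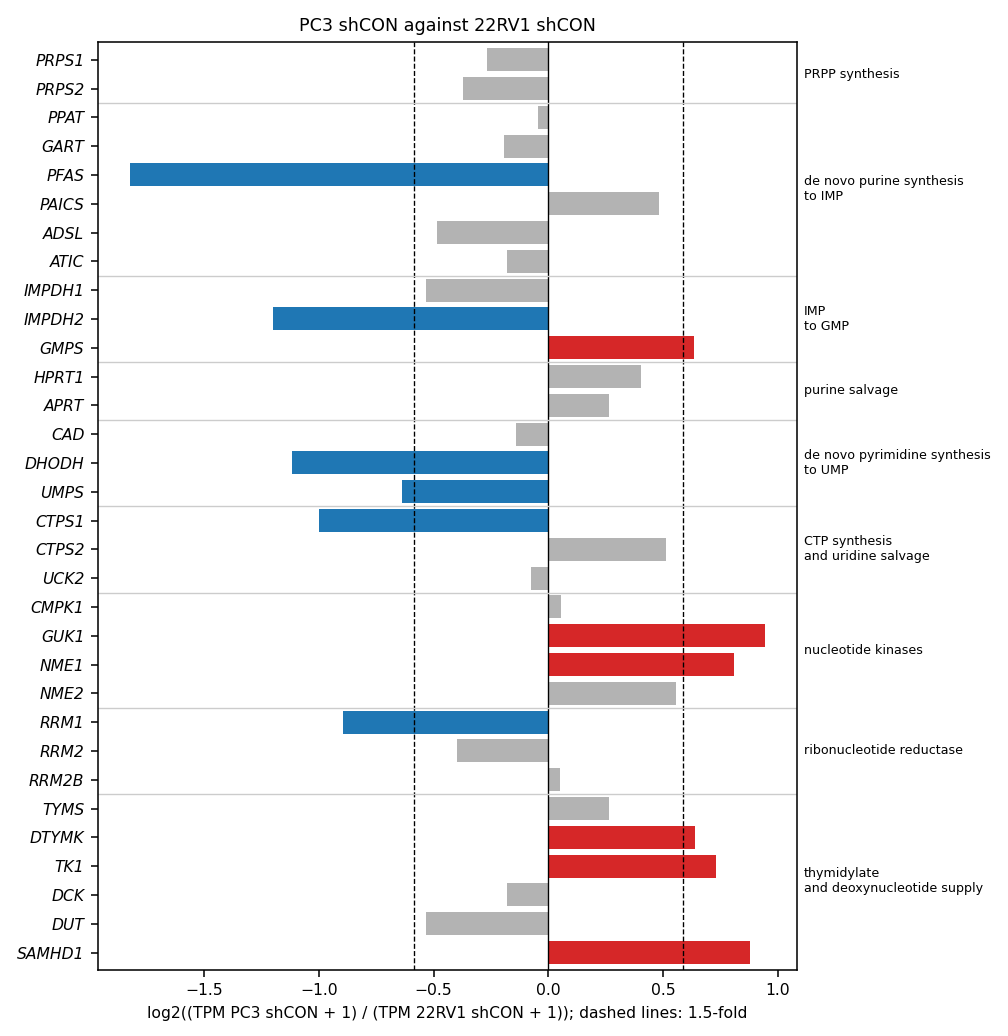
Log2 ratio of PC3 shCON over 22RV1 shCON for each enzyme (rows, grouped by step), 1 library per line, with dashed lines at 1.5-fold. Blue bars mark the 6 enzymes called lower in PC3, led by PFAS at −1.82, and red bars the 6 called higher, led by GUK1 at 0.94.

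A further 63 genes of nucleotide metabolism were examined as context, covering other salvage, interconversion, degradation, transport and hydrolysis steps. In 22RV1, of 46 that passed the filter, 27 (58.7%) were lower and 19 higher with shDDX52, beside 58.8% of all genes lower. Of the 46, 2 (4.35%) were called lower and 0 higher, beside 8.47% and 5.61% of all genes, with a median of −0.073. In PC3, of 48 that passed, 30 (62.5%) were lower and 18 higher, beside 53.5% of all genes lower. Of the 48, 2 (4.17%) were called lower and 5 (10.4%) higher, beside 9.84% and 8.95% of all genes, with a median of −0.11. AK6, an adenylate kinase, was the only gene called in the same direction in both lines: 16.2 and 9.25 TPM in 22RV1 and 23.7 and 11.2 TPM in PC3. AK6 shares exons with TAF9 on the same strand, so its reads are uncertain.

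Cytidine deaminase, CDA, was the other gene called lower in 22RV1, but its level there was low, at 3.36 and 1.09 TPM. In PC3 it was 328 and 220 TPM, with a log2 ratio of −0.58 just inside the threshold. Among genes of at least 5 TPM in 22RV1, the lowest log2 ratios after AK6 were those of the nucleotidases NT5C2 (−0.42) and NT5C3A (−0.40). The highest there were TYMP, thymidine phosphorylase (0.54), UCKL1 (0.28) and AMPD2 (0.25), none past 1.5-fold. TYMP shares exons with SCO2 on the same strand, which was 116 and 139 TPM in 22RV1, so the reads of TYMP are uncertain too. In PC3, NT5E, the surface nucleotidase CD73, was 7.42 and 17.3 TPM, GMPR, which returns GMP to IMP, was 2.43 and 5.81 TPM, and AMPD3, an AMP deaminase, was 4.75 and 8.76 TPM. Their log2 ratios in PC3 were 1.12, 0.99 and 0.76. In 22RV1, NT5E and AMPD3 were under 1 TPM in both libraries and did not pass the filter, and GMPR had a log2 ratio of 0.15.

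Lists of cell cycle and p53 target genes were set beside the enzymes, since RRM2, TK1 and TYMS are known to be made in S phase and RRM2B is a p53 target. Of 27 S-phase genes, 23 (85.2%) were lower with shDDX52 in 22RV1, beside 58.8% of all genes, with a median of −0.23. Only CDC6 was called lower (−0.67), 3.70% of the list beside 8.47% of all genes, and 0 were called higher, beside 5.61%. In PC3 16 of the 27 (59.3%) were lower, beside 53.5% of all genes, with a median of −0.065. There 0 were called in either direction, beside 9.84% of all genes lower and 8.95% higher. The medians of 17 G2 and M phase genes were −0.12 in 22RV1 and 0.11 in PC3. In 22RV1 12 of them (70.6%) were lower, beside 58.8% of all genes, and 0 were called, beside 8.47% lower and 5.61% higher. In PC3 6 (35.3%) were lower, beside 53.5% of all genes. Only CENPF was called lower there (−0.90), 5.88% of the list beside 9.84% of all genes, and 0 were called higher, beside 8.95%. The S-phase median in 22RV1 was thus below that of the enzymes, −0.13, and the part of cell cycle distribution in the enzyme values was not tested.

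Among 12 p53 target genes, CDKN1A, the cell cycle inhibitor p21, was 109 and 186 TPM in 22RV1 and 31.2 and 76.3 TPM in PC3, called higher in both lines. GDF15, a secreted stress cytokine, was 98.5 and 43.5 TPM in 22RV1 and 43.6 and 16.9 TPM in PC3, called lower in both. ZMAT3 was also higher in 22RV1 (0.81) and SESN2 in PC3 (0.81), both at low levels, 1.25 and 2.95 TPM for ZMAT3 and 2.93 and 5.91 TPM for SESN2. The list therefore held members called in each direction in each line, with medians of 0.15 in 22RV1 and −0.090 over the 11 that passed the filter in PC3. In 22RV1 8.33% of the list was called lower and 16.7% higher, beside 8.47% and 5.61% of all genes. In PC3 these shares were 9.09% and 18.2%, beside 9.84% and 8.95%. The activity of p53 was not tested in either line.

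**Figure D5:**
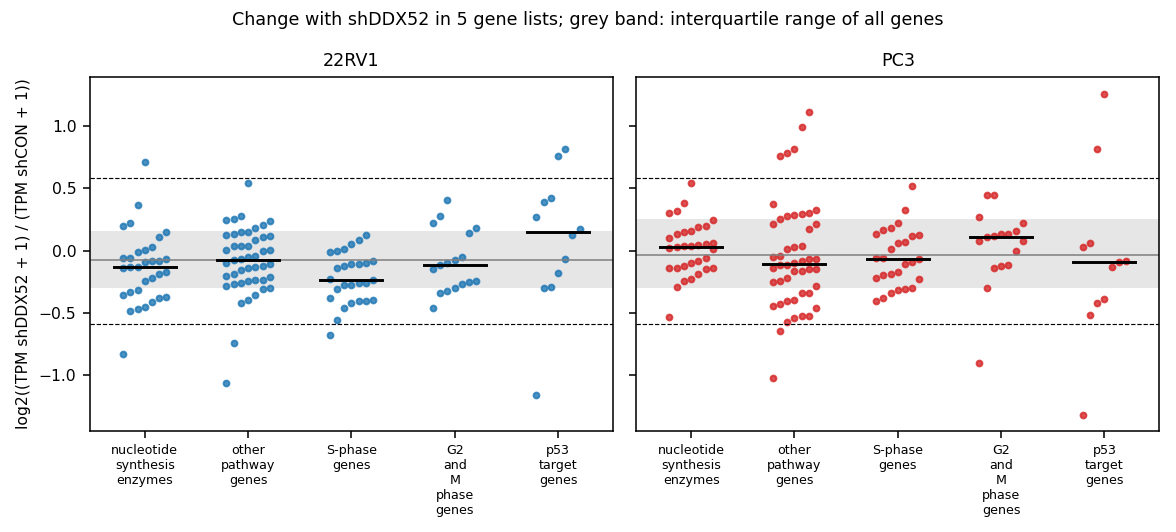
Log2 ratio of shDDX52 over shCON in 22RV1 and PC3 for the 32 enzymes, other nucleotide pathway genes, S-phase genes, G2 and M phase genes and p53 target genes; points are genes, black bars list medians, the grey line and band the median and interquartile range of all genes, and dashed lines 1.5-fold. In 22RV1 the S-phase median (−0.23) is the lowest of the 5 lists, and in PC3 the enzyme median (0.033) is close to that of all genes (−0.036).

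Promoter sequence was compared over RefSeq windows of 250 bases before to 50 bases after each gene's start on GRCh38, which were found for 29 of the 32 enzymes. Motifs were searched on both strands. The E-box CACGTG was in 6 of 29 enzymes (20.7%), namely ATIC, DCK, DHODH, NME1, PAICS and PPAT, beside 8.77% of 27305 genes, where PPAT and PAICS share 1 copy. The GC box GGGCGG was in 24 of 29 (82.8%) beside 48.3% of genes. An E2F site, taken as TTTCCCGC, TTTCGCGC, TTTGCCGC or TTTGGCGC, was in 5 of 29 (17.2%), namely DCK, DUT, GART, PRPS2 and TYMS, beside 3.99% of genes. CCAAT was in 11 of 29 (37.9%) beside 39.7% of genes, none of these motifs contains another, and a GC box can share bases with TTTCCCGC or TTTGCCGC. A gene counted if any of its windows held the motif, and the 29 enzymes had 44 windows where the 27305 genes had 35116. By window the shares were 13.6% beside 7.26% (E-box), 70.5% beside 45.0% (GC box), 11.4% beside 3.31% (E2F site) and 31.8% beside 34.6% (CCAAT). The genes compared were not limited to expressed ones, so these shares do not show enrichment in this pathway. The 6 enzymes with an E-box had log2 ratios with shDDX52 of −0.38 to −0.06 in 22RV1 and −0.53 to 0.15 in PC3, ranges that hold both signs in PC3 and within which many enzymes without the motif also lay.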

How the data were processed

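RNA was extracted with Trizol and libraries were made with an Illumina TruSeq RNA kit, for which no strand setting is stated. The authors mapped the reads on their sequencing provider's online platform and deposited 1 table of TPM per cell line. The submitters' processing notes name CASAVA, HISAT2 and hg19. The quantification program and annotation release are not given in the sources used here. Of 60671 gene identifiers, 58453 are in GENCODE 29 (GRCh38), which supplied positions and gene types, and all 32 enzymes were matched to their identifiers through a table of gene names. No coordinates were converted.

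Log2 ratios used a pseudocount of 1 TPM, genes of at least 1 TPM in either library, and calls at 1.5-fold. Depth cannot be read from TPM, so how precise a value is remains unknown. With 1 library per condition no test was made. Related genes were compared on the length-corrected TPM scale. As for the enzymes, the gene lists were chosen when earlier results of these data were known. All enzymes are named. Of the other pathway genes, those called the same way in both lines were named, with the 3 lowest and 3 highest log2 ratios in each line among genes of at least 5 TPM. Some genes covered by this rule or by the marker lists are not reported here. CDKN1A, GDF15, ZMAT3, SESN2, CDC6 and CENPF were named because they passed the call. Of the enzymes, 11 have named pseudogenes: of 42 such copies, 32 were at 0 in all libraries and the highest reached 0.71 TPM. Exons of 13 enzymes overlap another gene, 8 of them one on the opposite strand.

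Alternatives were a pseudocount of 0.1 TPM, no filter or a filter of 5 TPM, TPM recomputed over nuclear protein-coding genes or leaving out mitochondrial transcripts and the 20 highest genes, centring on the median of all genes, calls at 1.2-fold and 2-fold, and enzymes without named copies. ADSL, IMPDH2 and RRM2B were not among the promoter windows used. The scripts were checked on simulated data, with 2-fold changes and little noise put into genes of at least 5 TPM. That checks the code only, and not how far real libraries or genes at low levels vary. Python 3.11.15, numpy 2.4.6, pandas 2.3.3, scipy 1.17.1 and matplotlib 3.10.9 were used.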

Additional observations from a re-analysis of the deposited data

Results flagged for a closer look

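Of the 32 enzymes, 5 moved in opposite directions with shDDX52 in the 2 lines and ended at least 1.5-fold apart. That share is below the 19.5% of all genes that passed in both lines, so it does not set the enzymes apart. Each line has 1 library per condition, so the difference between the lines was not tested. All 5 were lower in 22RV1 and higher in PC3. The difference, as the PC3 log2 ratio minus that of 22RV1, was 0.98 for UMPS, which makes UMP, 0.64 for PRPS2 and 0.62 for PRPS1, which make PRPP, 0.62 for RRM2, the small subunit of ribonucleotide reductase, and 0.60 for GART of the purine route. Of these 10 log2 ratios, the one of UMPS in 22RV1 reached 1.5-fold.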

How the results depend on the processing

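Each comparison had 1 library per condition, so leaving out a replicate was not possible. The libraries carry no replicate numbers, and a fit over both lines with the line as a block, which would leave 1 residual degree of freedom, was not run, since each line was described on its own. Across 125 results and 687 alternatives, 664 values kept their direction and side of the threshold or moved little, 3 calls of single enzymes were lost and 6 were gained, and 0 called values changed sign. Part of the 664 was fixed beforehand and shows no robustness. A filter cannot change the log2 ratio of a gene that it keeps, and rescaling a library cannot change the share of a gene within its pair. With a filter of 5 TPM, 0 enzymes were called higher in 22RV1, beside 3.58% of all genes, because RRM2B was no longer included. Calls at 2-fold gave 0 lower and 0 higher in 22RV1, beside 2.86% and 2.24% of all genes. In PC3 against 22RV1 they gave 3 lower and 0 higher, beside 21.3% and 19.9%. Calls at 1.2-fold gave 10 lower and 2 higher in 22RV1, beside 28.0% and 15.9% of all genes. In PC3 they gave 2 lower and 4 higher, beside 27.4% and 23.6%. Between the lines they gave 12 lower and 12 higher, beside 43.0% and 38.7%. In PC3, a pseudocount of 0.1 TPM gave 1 enzyme lower, beside 13.1% of all genes. Nuclear protein-coding scaling gave 1 higher there, beside 11.2%, and a median of 0.16, as the median of all genes moved from −0.036 to 0.087. The enzymes lower in 22RV1 numbered 20 to 24 across the scalings. Small log2 ratios changed sign with scaling or pseudocount for ATIC, NME2, PPAT and SAMHD1 in 22RV1, for APRT, PAICS, RRM1 and TYMS in PC3, and for CMPK1 and PPAT between the lines.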

Other observations

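The largest differences in nucleotide metabolism between the lines lay outside the 32 enzymes, among genes picked after their values were seen. Cytidine deaminase, CDA, was 3.36 TPM in the 22RV1 control and 328 TPM in the PC3 control, and the mitochondrial nucleoside diphosphate kinase NME4 was 1.91 and 198 TPM. Uridine phosphorylase, UPP1, was 22.3 and 137 TPM and adenosine kinase, ADK, was 31.4 and 170 TPM. Other salvage and breakdown genes had the lower level in PC3: UCK1 was 46.6 and 18.05 TPM, TK2 was 15.8 and 5.53 TPM and NT5C was 195 and 91.1 TPM. The adenylosuccinate synthases were split between the lines: ADSS1 was 54.9 TPM in 22RV1 and 4.63 TPM in PC3, and ADSS2 was 9.58 and 30.4 TPM. AK5, an adenylate kinase, was 20.4 TPM in 22RV1 and was listed at 0 in PC3. Of the 50 context genes that passed the filter in this comparison, 17 (34%) were called lower and 16 (32%) higher in PC3. The shares of all genes were close to these, at 32.2% and 29.3%.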
